A study of Mus musculus with 7 samples.

Results

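The 300 stitched clusters of distal accessible regions described here were the highest of 22339 such clusters in the ATAC-seq data of freshly isolated mouse muscle stem cells (MuSCs). ATAC-seq reads open chromatin through the cuts that the Tn5 transposase makes in it. To find the clusters, peaks of all 7 libraries that overlapped by at least 1 bp were merged on the 19 autosomes, and regions called in all 7 libraries were kept if they lay more than 1 kb from every transcription start site (TSS) of a protein-coding gene. Regions less than 12.5 kb apart were then stitched into a cluster. Each cluster was scored by the sum, over its regions, of region length times the median over the libraries of the highest pileup, which is the mean coverage of a peak by extended reads. The 300 members were thus chosen by their own measured length and signal, so those values are given as a description and not as a finding. Of 39367 distal regions, 2610 (6.63%) fell in the 300 clusters.

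The libraries came from 4 Nedd4L-cKO and 3 WT mice, with 5000 sorted MuSCs from hindlimb skeletal muscle in each. The Nedd4L-cKO animals (Nedd4L fl/fl Pax7 cre/+ on a C57BL/6 background) lose an exon of the ubiquitin ligase Nedd4L in cells that have expressed Pax7 and in their progeny, so that Cre acted from development on; the labels call the control genotype Nedd4L-WT and do not state its Cre status. The animals were males in the second month of life, and the labels name no treatment. The cells were sorted as ITGA7+ and negative for CD31, CD45, CD11b and SCA1. The comparison addresses whether chromatin accessibility differs between Nedd4L-cKO and WT MuSCs. MACS2 kept 15041837 to 20084685 tags in the Nedd4L-cKO libraries and 14429374 to 17414121 in the WT libraries. WT replicate 3 was the shallowest library and, by the file headers, the only one from sequencing lane 2. The labelled cell type was checked at the promoters of its markers: all 10 MuSC genes examined (Pax7, Myf5, Myod1, Cdh15, Itga7, Vcam1, Calcr, Chrdl2, Megf10 and Heyl) had a peak within 1 kb of a TSS in all 7 libraries, against 2 of 16 immune genes, 7 of 15 endothelial, 8 of 12 fibro-adipogenic and tendon, 7 of 10 pericyte and smooth muscle, 5 of 8 glial and 3 of 10 pluripotency genes. Of all 20260 autosomal protein-coding genes with a known TSS, 13322 had one that was accessible in all 7 libraries. Ptprc, Pecam1 and Pdgfra, defining genes of leukocytes, endothelium and fibro-adipogenic progenitors, had no peak in all 7. Coro1a, Kdr and Dpt of the same lists had one, so these promoters do not measure the purity of the cells.

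Distal accessible regions are mostly enhancers, insulators or promoters of transcripts that code for no protein. Where many lie close together around a gene that matters for a cell's identity, they are often called stretch enhancers or super-enhancers; those terms are usually defined by histone marks or by bound co-activators, which were not measured here. In quiescent MuSCs, Notch receptors, which have Heyl as a target, help to keep the cells out of the cycle, and Pax7 marks the cells. Families of microRNAs (miRNAs) such as let-7, miR-23, miR-24 and miR-27 act on differentiation in many tissues. A miRNA pairs with its target RNAs mainly through its seed, bases 2 to 8 from the 5′ end.

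The highest cluster and a pair of others among the first 15 held miRNA genes of these families. The cluster of rank 1 (chr15:85598836-85713672, mm10) held the hairpins of let-7c-2 and let-7b and no protein-coding TSS. That of rank 4 (chr13:63230943-63351094), which overlapped Aopep and Fancc, held miR-23b, miR-27b and miR-24-1. That of rank 15 (chr8:84183464-84212592), which overlapped Zswim4, held their paralogs miR-23a, miR-27a and miR-24-2. The mature miRNAs below (RefSeq, GRCm38.p6, all 3 loci on the plus strand) are shown because they are what these 3 clusters surround; capitals mark the seed.
let-7c-5p: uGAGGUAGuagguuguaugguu
let-7b-5p: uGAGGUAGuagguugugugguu
miR-23a-3p: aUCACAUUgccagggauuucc
miR-27a-3p: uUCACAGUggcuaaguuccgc
miR-27b-3p: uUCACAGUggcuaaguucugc
miR-24-3p: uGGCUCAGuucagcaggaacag
The let-7 pair shared the seed GAGGUAG and the miR-27 pair the seed UCACAGU, while miR-24-3p was listed with the same sequence at both of its loci. In all 3 clusters the hairpins lay between accessible regions and not in them. The nearest region was 1523 bp from let-7b, 3060 bp from miR-24-1 and 505 bp from miR-24-2.

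Across the 300 clusters, 20 held at least 1 miRNA gene of RefSeq, and together they held 30 of the 1136 autosomal miRNA genes (2.64%). The clusters of rank 301 to 600 held 8 (0.704%), with a summed span of 11.2 Mb against 16.6 Mb for the members. Of the 30, 24 had a sequence in the table used. The others included miR-145a and miR-143, smooth muscle miRNAs whose genes lay in the cluster of rank 39, and miR-486, a miRNA abundant in muscle and blood, in the cluster of rank 292. A hairpin overlapped an accessible region in 7 clusters, for miR-145a, miR-6403, miR-1905, miR-3971, miR-3075, miR-1191b and miR-7662.

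**Figure D1:**
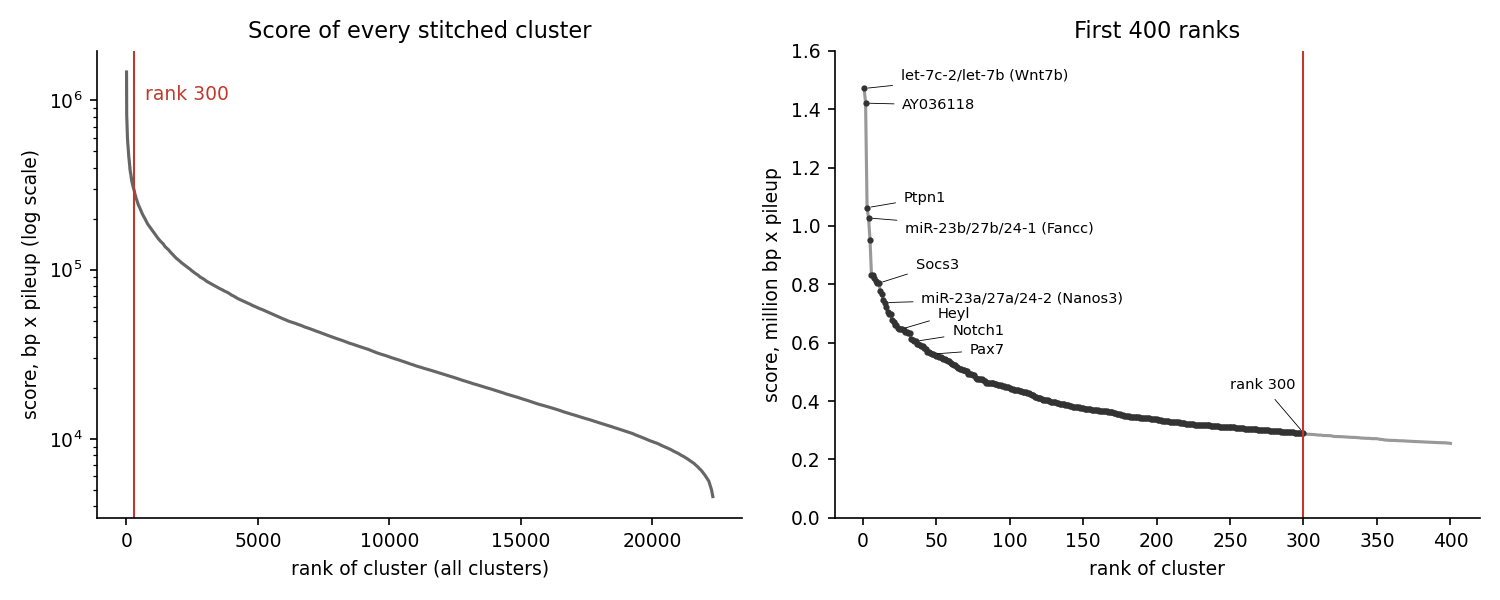
Score of the stitched clusters by rank. Left, all 22339 clusters on a log scale; right, the first 400 ranks on a linear scale of score (bp times pileup), with named clusters labelled and rank 300 marked by the red line. The score fell from 1.47 Mb times pileup at rank 1 to 0.291 at rank 300 with no step at that rank.

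The members were large compared with the other clusters, as the rule makes them. They held a median of 8 regions (range 1 to 22), spanned a median of 50.5 kb (3.67 to 137 kb) and were covered by accessible regions over a median of 23.0% of their span. Over all clusters the median was 1 region and 1.59 kb, and 14223 clusters (63.7%) were a single region. The median gap between neighbouring regions of a member was 5.26 kb at the median. The strongest region made up a median of 28.4% of a member's score, so that most members did not rest on a single region. Among the 115 clusters with 10 or more regions, 105 were members. The 300 clusters held 7.19% of the covered length and 12.1% of the summed score. The score of rank 1 was 5.05 times that of rank 300 and 55.5 times the median of all clusters.

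The threshold cut a continuous run of scores. Just inside it, the clusters nearest Filip1l (rank 298), Alppl2 (rank 299) and Zfpm1 (rank 300) scored 0.2915, 0.2913 and 0.2910 in units of Mb times pileup. Just outside, those nearest Sgms1 (rank 301), Slf2 (rank 302) and Tmem131l (rank 303) scored 0.2890, 0.2869 and 0.2862.

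Single regions of the members were slightly longer than others and deeper. Their median length was 1270 bp against 1207 bp for the other distal regions, and their median pileup 30.2 against 15.5 reads. The fold enrichment of the same regions, a ratio of pileup to local background, was lower, with a median of 3.31 against 3.89. MACS2 had no control library and estimated that background within each library, over the genome or 10000 bp. Pileup and fold thus ranked these regions differently, and scoring by fold in place of pileup kept 185 of the 300 clusters.

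The cluster of rank 1 had 17 regions over 115 kb, 30.7 kb of them accessible, with the highest pileups in its left part (73.8 reads in the first region). Its ends were at least 17.02 kb from the nearest protein-coding TSS, that of Wnt7b, a Wnt ligand. That of rank 4 had 19 regions over 120.2 kb, the widest of 4249 bp, and the miRNA hairpins lay 69.5 to 70.3 kb from its start. The rank 15 cluster was compact, with 6 regions over 29.1 kb, and 41.2% of its score came from a single region of 3639 bp. The maps of regions by distance from the cluster start show these forms. Scored by fold enrichment, the clusters of rank 1, 4 and 15 were at ranks 4, 6 and 521. With only peaks of a -log10 q of at least 5, they were at ranks 2, 606 and 6.

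**Figure D2:**
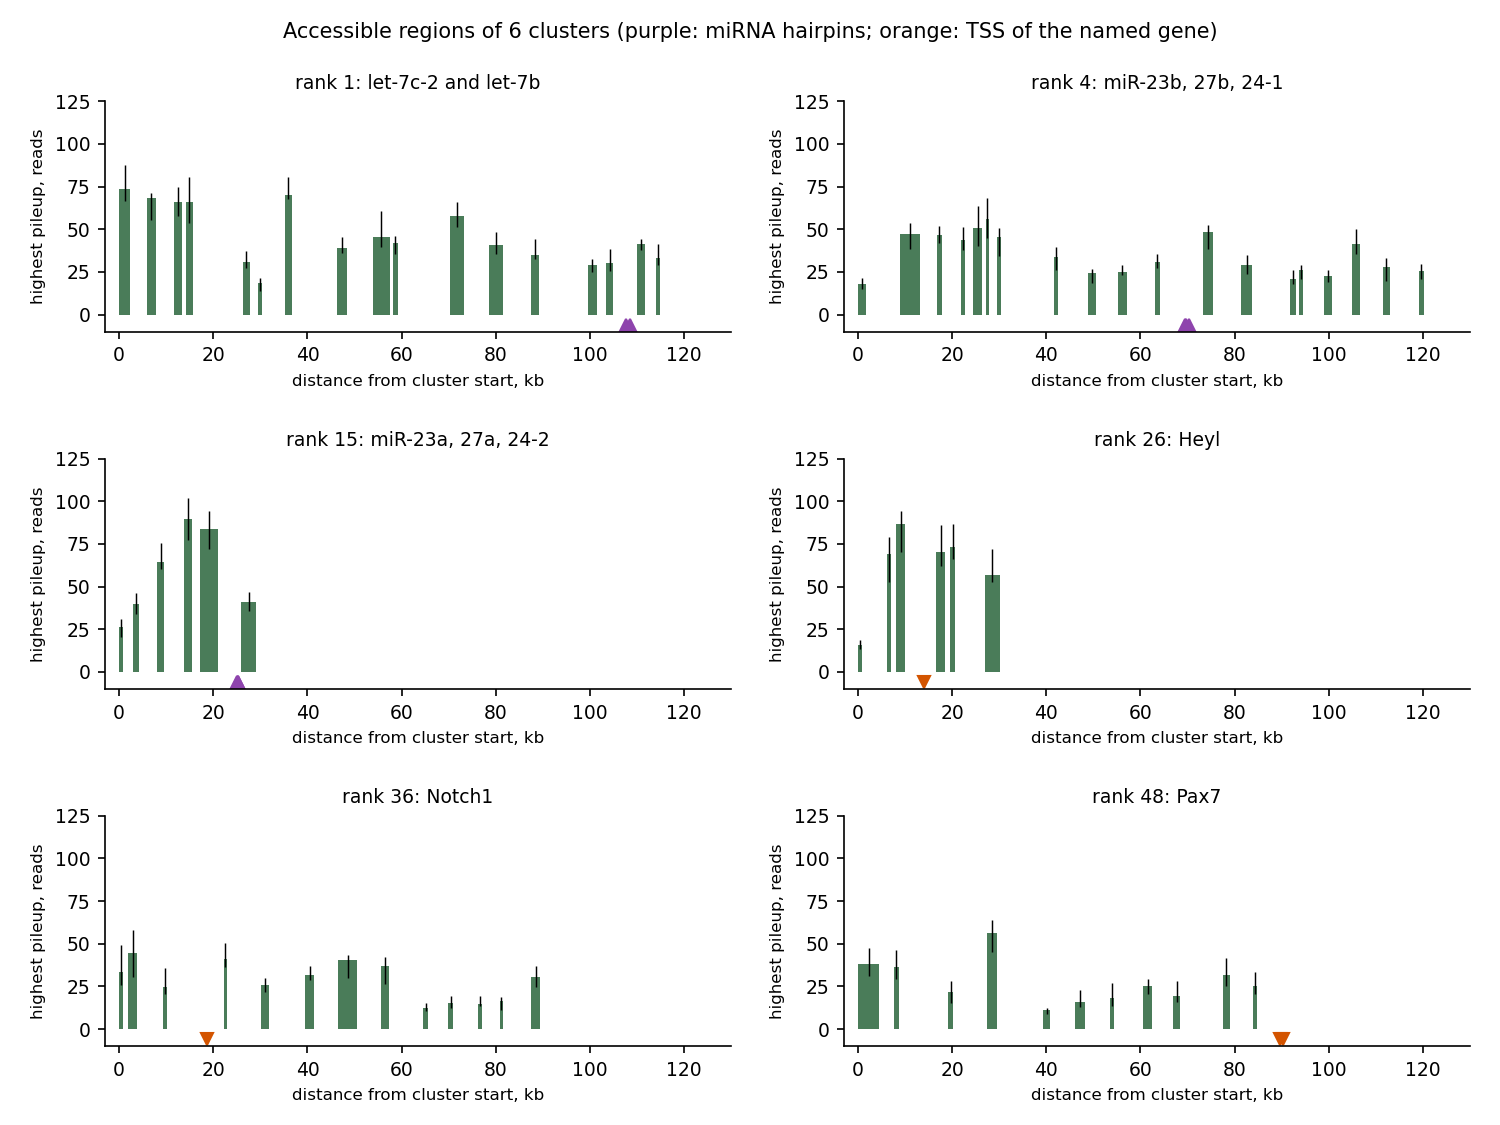
Accessible regions of 6 clusters against the distance from the cluster start in kb. Bars give the median over 7 libraries of the highest pileup (extended reads) at the true width of each region, and lines run from the lowest to the highest library; purple triangles mark miRNA hairpins and orange triangles the TSS of the named gene. The hairpins of the let-7 and miR-23/27/24 clusters sit in gaps between bars, and the Pax7 TSS lies beyond the right end of its cluster.

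The rest of the first 10 lay mostly away from promoters. Rank 3 (chr2:167752527-167877794, 19 regions) was 53.0 kb from Ptpn1, a tyrosine phosphatase, and overlapped no protein-coding gene. Rank 5 (15 regions) overlapped Htra3, a secreted protease, and Acox3. Rank 6 (12 regions) was 34.7 kb from the TSS of Lrrc74a. Rank 7 (11 regions) overlapped Spsb1, an adaptor of a ubiquitin ligase. Rank 8 (17 regions) lay in Tns1, which links integrins to actin, with the nearest TSS, of Rufy4, 87.0 kb away. Rank 9 (9 regions) spanned the TSSs of Plec, which anchors intermediate filaments in muscle, Parp10 and Grina. Rank 10 held the most regions of any cluster, 22 over 101 kb, and was 60.8 kb from Zfp36l2, an RNA-binding protein that destabilises messages. The longest spans were those nearest Casz1 (rank 57, 137 kb), Tgfbi (rank 99, 127 kb) and Selenon (rank 17, 126 kb). Selenon encodes a selenoprotein of the muscle endoplasmic reticulum.

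Rank 2 stood out for its pileup, as did 2 further clusters. It was a single region (chr17:39843050-39848771, 5722 bp) that reached into the lncRNA gene AY036118, 102 kb from the nearest protein-coding TSS. Its pileup of 248 reads was the highest of all member regions, while its fold was 1.75, against a median of 3.31 over member regions. That of rank 19 (chr9:3000077-3038349) was 297 kb from any such TSS, with a pileup of up to 117 reads. That of rank 148 (chr2:98662204-98667380) spanned 5.18 kb, was 2344 kb from the nearest TSS, that of Lrrc4c, and reached 219.6 reads. Ranks 19 and 148 were singled out after their values were seen. These 3 clusters held the 3 highest pileups of all members. Whether their reads come from repeated sequence was not tested, so their level is uncertain. By fold enrichment, rank 2 fell to rank 5983 and rank 148 to rank 6587, whereas rank 19 stayed among the 300 at rank 178. Falls of this kind were not particular to these clusters. Those nearest Frmd8 (rank 59), Wdr81 (rank 208), Midn (rank 209) and Zfp568 (rank 294) fell to ranks 5440, 6837, 7138 and 7598. The share of rank 2 also varied more among the Nedd4L-cKO libraries, at 0.133%, 0.150%, 0.124% and 0.115% of each library's distal signal, than that of rank 1, at 0.138%, 0.138%, 0.140% and 0.134%. In WT the shares were 0.127%, 0.128% and 0.133% for rank 2 and 0.140%, 0.138% and 0.135% for rank 1, with ranges of like width.

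Most members lay in or near genes. Of the 300, 228 (76%) overlapped a protein-coding gene, against 53.9% of all clusters and 71.0% of those of rank 301 to 600. A TSS lay inside the span of 89 (29.7%), against 3.01% and 20.3%. These shares depend on span, since a long cluster meets a gene more easily, so the next 300 clusters, with a median span of 36.9 kb, are the nearer standard. The median distance to the nearest TSS was 9.10 kb, against 13.2 kb for rank 301 to 600 and 31.9 kb for all clusters. Only 62 members (20.7%) lay over 50 kb from every such TSS. Members were found on every autosome, from 5 on chromosome 14 to 30 on chromosome 11. In 22 places 2 members stood less than 50 kb apart, as on both sides of the Irf2bp2 gene (ranks 21 and 27), at Col4a1 and Col4a2 (ranks 20 and 112) and at Zfp36l2 and Haao (ranks 10 and 35).

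Transcripts that code for no protein started inside 77 of the 2610 member regions (2.95%), about as often as in all distal regions (1083 of 39367, 2.75%). These starts lay in 66 of the 300 clusters. The rule left out protein-coding promoters only, so such regions may be promoters of long non-coding RNAs (lncRNAs). The promoters of D130051D11Rik in the cluster of rank 1, Gm14321 in that of rank 3 and Malat1 in that of rank 24 are shown because each lies wholly in a strong region of its cluster: the median pileups of those regions were 70.0, 79.9 and 58.9 reads. Malat1 is an abundant nuclear lncRNA. The windows run 5′ to 3′ on the strand of the gene, from 250 bases before to 50 after the RefSeq start (GRCm38.p6). Capitals mark TGANTCA, the motif of AP-1 factors such as Fos with any base allowed at its centre. They also mark CANNTG, the E-box that MyoD family and E proteins bind. Matches to TGANTCA were not split by the centre base.
D130051D11Rik, chr15:85634346-85634645, plus strand: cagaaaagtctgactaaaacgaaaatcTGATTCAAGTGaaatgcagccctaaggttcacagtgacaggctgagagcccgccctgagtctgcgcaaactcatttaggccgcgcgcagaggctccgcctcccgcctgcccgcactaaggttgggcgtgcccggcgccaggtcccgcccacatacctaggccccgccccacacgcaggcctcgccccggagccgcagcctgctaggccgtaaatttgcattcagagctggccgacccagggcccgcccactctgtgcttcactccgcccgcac
Gm14321, chr2:167777241-167777540, plus strand: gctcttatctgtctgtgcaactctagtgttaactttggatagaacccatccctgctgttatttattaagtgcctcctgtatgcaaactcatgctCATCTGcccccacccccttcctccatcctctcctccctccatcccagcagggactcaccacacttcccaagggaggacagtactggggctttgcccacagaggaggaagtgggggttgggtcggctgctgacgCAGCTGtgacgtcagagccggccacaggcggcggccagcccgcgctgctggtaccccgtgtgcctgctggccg
Malat1, chr19:5802623-5802922, minus strand: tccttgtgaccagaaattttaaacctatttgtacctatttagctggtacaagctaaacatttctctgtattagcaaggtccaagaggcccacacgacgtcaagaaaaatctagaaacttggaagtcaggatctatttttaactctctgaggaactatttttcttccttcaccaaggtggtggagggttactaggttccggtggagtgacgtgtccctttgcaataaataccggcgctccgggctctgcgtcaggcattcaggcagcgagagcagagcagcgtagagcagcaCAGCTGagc
The D130051D11Rik window held TGANTCA, with T at its centre, and, overlapping it by 2 bases, CANNTG. The Gm14321 window held CANNTG in 2 places and the Malat1 window in 1, near the start.

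Both motifs read the same on the other strand. Among the 64 lncRNA promoter windows that lay wholly in member regions, 14 (21.9%) held TGANTCA. The share was 10.7% of 1007 windows in other distal regions, 9.25% of all 11311 lncRNA promoters and 7.84% of all 31396 promoters of the table. The E-box form CAGCTG was in 26 of the 64 (40.6%), against 24.03%, 17.6% and 16.3% in the same order. Any CANNTG was in 84.4%, against 78.4%, 78.3% and 72.2%. The median GC content of the 64 windows was 54.2%, against 52.3%, 48.3% and 53.0%, so composition was not matched. Some of the 64 windows are alternative starts of the same gene, such as the 3 of Gm32287, so they are not independent, and a match shows that the letters are present, not that a factor binds.

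Listed genes were compared with all genes for their distance to the members. Of 258 autosomal genes in 14 lists, which cover MuSC biology, housekeeping and other cell types, 40 (15.5%) had a TSS inside a member or within 50 kb of its ends. The same held for 623 of all 20260 genes with a known TSS (3.08%) and for 523 of the 13322 whose TSS was accessible in all 7 libraries (3.93%). The housekeeping list stood as high as the lists of MuSC biology, with 4 of 12 genes (33.3%), among them Actb, Gapdh and Rplp0. Nearness to a member was also seen for genes that every cell uses, and it was given no test.

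**Figure D3:**
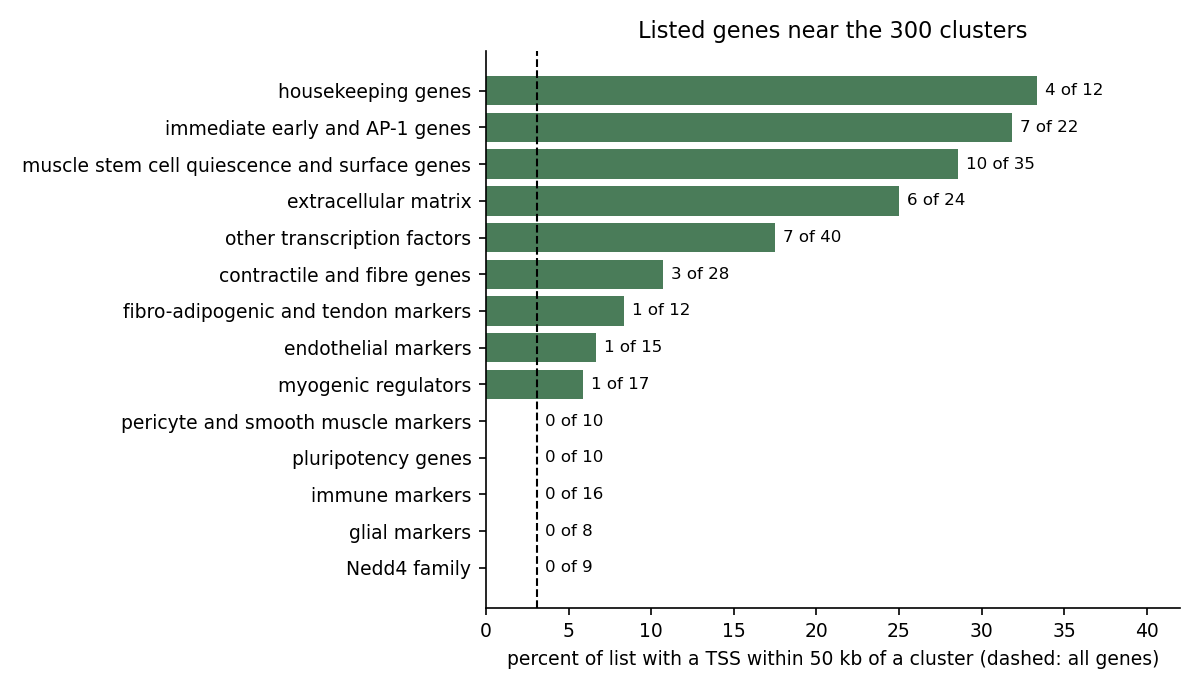
Percent of each gene list with a TSS inside or within 50 kb of one of the 300 clusters, from 0 to 33.3%, with the number of genes beside each bar; the dashed line at 3.08% is the share of all genes. Housekeeping, immediate early and MuSC quiescence genes have the longest bars, and 5 lists, among them the immune and Nedd4 family lists, have none.

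Among genes of MuSC quiescence and the cell surface, 10 of 35 (28.6%) lay near a member. There were 4 at a -log10 q of at least 5, and 5 with scores by fold enrichment or with the TSS inside the cluster. Of the Notch pathway, Heyl, a transcriptional repressor switched on by Notch, had its TSS inside the cluster of rank 26 (6 regions over 30.1 kb, with a highest pileup of 86.4 reads). Notch1 had its TSS inside the cluster of rank 36 (13 regions over 89.4 kb), most of which lay upstream of the gene. Notch2 lay 10.7 kb from the cluster of rank 259, which is inside the gene, and Notch3 48.1 kb from that of rank 220. The surface genes were Cd82 (rank 22), a tetraspanin, Fgfr1 (rank 97) and Fgfr4 (rank 155), receptors of fibroblast growth factors, Cxcr4 (rank 147), a chemokine receptor, and Sdc4 (rank 278), a heparan sulfate proteoglycan. Col5a3, a collagen chain, was at rank 164. At a -log10 q of at least 5, the clusters of Heyl, Notch1 and Cd82 were at ranks 13, 678 and 963. By fold enrichment they were at ranks 720, 30 and 65.

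Of 17 myogenic regulators, Pax7 alone was near a member. This factor defines MuSCs, and the cluster of rank 48 (chr4:139743346-139828117) came within 4.85 kb of its TSS, with 11 regions over 84.8 kb, all inside the gene. The largest of them was 4550 bp long. Of the 17, 16, Pax7 included, had some stitched cluster within 50 kb, and 1 had none. The count of 1 rested on the rule: it was 0 with stitching at 5 kb or with the TSS inside the cluster, 2 with stitching at 25 kb or with lncRNA TSSs left out, and 3 at a -log10 q of at least 5, where the Pax7 cluster was at rank 950. Of 22 immediate early and AP-1 genes, which respond within minutes to isolation and other stress, 7 (31.8%) were near a member: Socs3 (rank 11), Fos (rank 42), Nr4a1 (rank 101), Ier2 (rank 113), Zfp36 (rank 123), Maff (rank 129) and Fosb (rank 241).

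Of 40 other transcription factors, 7 (17.5%) were near a member, with Id3, an inhibitor of E proteins, at rank 31, Runx1 at rank 64, Sox8 at rank 69, Snai1 at rank 85 and Nfix, which shifts muscle to its fetal programme, at rank 113. Of 24 extracellular matrix genes, 6 (25%) were, among them the basement membrane chains Col4a1 and Col4a2 (rank 20), Lama5 (rank 109) and Hspg2 (rank 132), with Sparc at rank 158. Of 28 contractile genes, 3 were: Tnni2 and Tnnt3 (rank 239) and Tnni1 (rank 272), subunits of skeletal troponin. Of the markers of other cell types, 1 of 15 endothelial genes (Egfl7, at the Notch1 cluster; 6.67%) and 1 of 12 fibro-adipogenic and tendon genes (Dpt, rank 223; 8.33%) were near a member, against 3.08% of all genes. The counts were 0 of 16 immune, 0 of 10 pericyte, 0 of 8 glial and 0 of 10 pluripotency genes. None of the 9 Nedd4 family genes was near a member, Nedd4L included.

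The clusters ranked alike in all libraries. The rule in part fixes this, since members were chosen on the median of these libraries and region lengths were the same in each. Scored by region length alone, 197 of the 300 stayed. In each library's own ranking, 281 to 291 of the 300 were among its 300 highest, and 251 were so in all 7. The lowest place of any member in any library was 419. Between the highest and the lowest library, the share of a member differed by a median of 1.13 times, and at most by 1.56 times, at the cluster nearest Gas6 (rank 266). For all clusters the median was 1.37 times. These medians are not matched, since members sum a median of 8 regions and most clusters are a single region. The share of distal signal held by the 300 clusters together was 12.4%, 12.1%, 12.0% and 11.9% in the Nedd4L-cKO libraries and 11.9%, 12.0% and 12.1% in the WT libraries. The groups overlapped, at 12.1% ± 0.243 (SD, n = 4) and 12.0% ± 0.0800 (SD, n = 3). The difference of the means, 0.107 percentage points, was -0.0014 without Nedd4L-cKO replicate 1. Within each genotype the shallower libraries had the higher shares, and the part of depth in this was not tested.

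**Figure D4:**
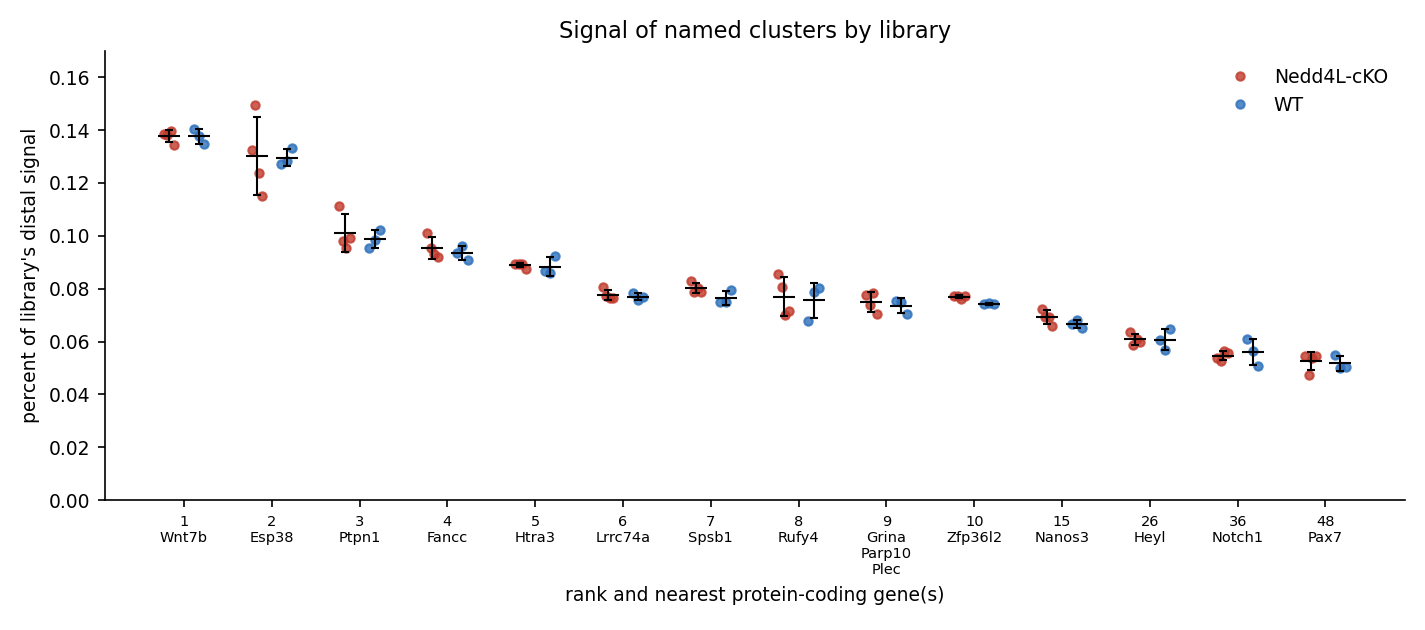
Percent of each library's distal signal in 14 named clusters, with 4 Nedd4L-cKO (red) and 3 WT (blue) libraries as points and the mean ± SD in black. The groups overlap at each cluster shown but that of rank 10 (Zfp36l2), where the Nedd4L-cKO points sit between 0.0761 and 0.0773% and the WT points between 0.0740 and 0.0744%.

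The rule took the median over all 7 libraries and did not use the genotype, but a region had to be called in every library, so regions lost in a genotype could not enter. Between genotypes, no cluster passed the test. In limma on ranks within each library, 0 of the 300 members had an adjusted p under 0.05, where the background over all 22339 clusters was 0% as well, and the lowest adjusted p was 1. At an unadjusted p under 0.05 there were 0 members, against a background of 2.80% (625 clusters). The test draws each cluster's variance toward a value shared by all clusters, most of which are single regions. How far this changed the p-values of the members was not tested, so the count of 0 is not read as a trait of theirs. The lowest unadjusted p among the members was 0.211. On the log2 scale of the share, Nedd4L-cKO minus WT ran from -0.10 to 0.13 over the members, with a median of 0.01. Its median size was 0.03. All clusters, most of them single regions, had a median of -0.01 and a median size of 0.07. Of the 300, 190 had the higher mean share in Nedd4L-cKO and 110 in WT. On the rank scale of the test, 148 were higher and 152 lower in Nedd4L-cKO. The summed share of the members differed by -0.0014 percentage points without Nedd4L-cKO replicate 1, so the count of 190 is not read as a direction.

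All 4 Nedd4L-cKO libraries were above all 3 WT libraries at 4 members (1.33%, against a background of 1.45%): Zfp36l2 (rank 10), Egfr (rank 84), Nfkbia (rank 87) and Loxl1 (rank 141). All 4 were below at 2 members (0.667%, against a background of 1.74%): Tead1 (rank 184) and Tomm20 (rank 297). Both shares were under or near those of clusters at large. These 2 were also the members with the lowest p in that direction. At the cluster 34.0 kb from Tead1, a factor of the Hippo pathway, the shares were 0.0298%, 0.0305%, 0.0316% and 0.0309% in Nedd4L-cKO and 0.0337%, 0.0326% and 0.0324% in WT. They fell by 0.10 on the log2 scale and by 0.07 ± 0.05 (SE) in normal-score units (limma adjusted p = 1, unadjusted p = 0.211). At the cluster nearest Tomm20 the shares were 0.0262%, 0.0257%, 0.0267% and 0.0264% against 0.0277%, 0.0279% and 0.0281%, with a limma adjusted p of 1. In the other direction, the lowest p values were at the clusters nearest Pdlim2 (rank 295) and Rrp1b (rank 220, the one near Notch3). Their means were 0.0295% ± 0.00267 (SD, n = 4) against 0.0269% ± 0.00121 (SD, n = 3), and 0.0312% ± 0.00217 against 0.0286% ± 0.00155, each with a limma adjusted p of 1, and the groups overlapped at both.

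**Figure D5:**
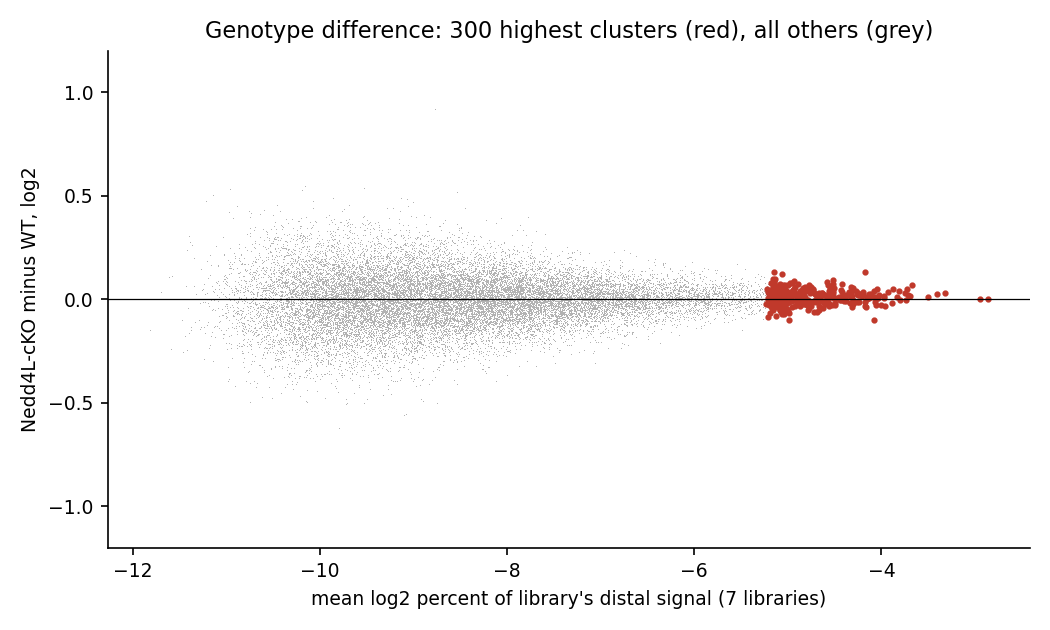
Nedd4L-cKO minus WT on the log2 scale (y axis) against the mean log2 percent of distal signal (x axis) for all clusters, with the 300 members in red and the others in grey. The red points lie between -0.10 and 0.13, a narrower band than that of the weaker clusters, most of which are a single region.

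The clusters that stood out for their genes had close values in both genotypes. The let-7 cluster held 0.138%, 0.138%, 0.140% and 0.134% of the distal signal in Nedd4L-cKO and 0.140%, 0.138% and 0.135% in WT. The miR-23b cluster held 0.0954% ± 0.00416 (SD, n = 4) and 0.0936% ± 0.00270 (SD, n = 3), and the miR-23a cluster 0.0691% ± 0.00265 and 0.0667% ± 0.00145. The Heyl cluster held 0.0638%, 0.0588%, 0.0608% and 0.0599% in Nedd4L-cKO and 0.0605%, 0.0569% and 0.0647% in WT. At the Notch1 cluster the values were 0.0539%, 0.0526%, 0.0566% and 0.0558% against 0.0610%, 0.0562% and 0.0509%. At the Pax7 cluster they were 0.0545%, 0.0474%, 0.0539% and 0.0547% against 0.0549%, 0.0501% and 0.0502%. In each of these 6 clusters the ranges of the genotypes overlapped and the limma adjusted p was 1.

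Single regions of the members were tested in the same way. Of 2610 regions, 0 had a limma adjusted p under 0.05 (background 0% of 52187 autosomal regions called in all libraries), with a lowest adjusted p of 1.00. An unadjusted p under 0.05 was found for 62 (2.38%), against a background of 3.97%, 31 of them higher and 31 lower in Nedd4L-cKO. Inside the spans lay 609 further regions that were called in some libraries only, 169 of them in 1. A single one was called in all Nedd4L-cKO and no WT libraries, and a single one in all WT and no Nedd4L-cKO libraries. Over the genome such regions numbered 65 and 76 of 41014. Nedd4L-cKO replicate 4, the deepest library, had the most of these variable regions inside the spans, 349, where the other libraries had 230 to 295, and the part of depth in this was not tested.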

How the data were processed

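The authors trimmed reads with Trimmomatic 0.39, aligned them to mm10 with BWA 0.7.17, removed duplicates with Picard 2.26.3 and called broad peaks with MACS2 2.2.7.1 for each library alone, without a control, each tag moved -100 bp and lengthened to 200 bp (versions from the submitters' processing notes and the file headers). Per the file headers the deposited pileup is a signal, not scaled to depth, and the deposited fold enrichment is a ratio to local background; p-value and q-value are given as -log10 by the authors, and the deposited score is derived from the q-value. Pileups and fold ratios were compared between libraries only as ranks or as shares of a library's distal signal. Pileup carries no error of its own, and reads cannot be recovered from it, so no counting interval is given.

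TSSs came from RefSeq GRCm38.p6, the assembly of mm10: 16457 of 20665 autosomal protein-coding genes from its promoter table, 3803 from gene ends with GENCODE strands, and 405 without strand, whose ends both served to exclude regions. Exons and introns on mm10 were not used here. Regions known to attract artifacts were not masked. Sequences of the regions themselves are not shown, as no mm10 genome was used.

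For each cluster and library, region length times that library's highest pileup was summed and replaced by the normal score of its rank in that library. limma 3.58.1 (lmFit, eBayes, R 4.3.3) compared 4 Nedd4L-cKO with 3 WT libraries over all 22339 clusters, and over 52187 regions on ranks of fold enrichment, with Benjamini-Hochberg adjustment. The step was tested on simulated data, where the planted shifts were larger than any difference seen among the members. That test does not show how small a difference could be detected among the members. The labels give 1 library per numbered sample. The p-values measure the spread between these samples after limma has drawn it toward a value shared by all clusters or regions.

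The members, the gene lists and the tests were chosen with earlier results of these data known. Named clusters were the 10 highest, the 3 with most regions, the 3 longest, 3 on each side of rank 300, the 2 with the lowest p in each direction, those near genes of 3 lists (up to 8 genes a list, up to 5 of other lists), and, chosen after their values were seen, those with miRNA genes, those of rank 19, 24 and 148, neighbouring pairs, members whose genotypes did not overlap and the most variable member. Alternatives were other stitching distances, TSS windows, scores, peak thresholds, scales and covariates, and leaving out each library. Tables were made with pandas 2.3.3, numpy 2.4.6 and Python 3.11.15, and plots with matplotlib 3.10.9.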

Additional observations from a re-analysis of the deposited data

Results flagged for a closer look

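In 5 of 46 measures checked, 1 of the 4 Nedd4L-cKO libraries stood apart from the other three by Dixon's criterion, which chance alone meets in about 1 of 20 such groups. Nedd4L-cKO replicate 2 had 0.0474% of its distal signal in the Pax7 cluster (rank 48), where the others had 0.0539 to 0.0547%; WT replicates 2 and 3 were at 0.0501% and 0.0502%. Nedd4L-cKO replicate 4 had 0.0283% in the cluster of rank 148 near Lrrc4c, where the others had 0.0376 to 0.0383%, and 0.0876% in the Htra3 cluster (rank 5), where the others had 0.0892 to 0.0895%. Nedd4L-cKO replicate 3 had 0.0761% in the Zfp36l2 cluster (rank 10), where the others had 0.0771 to 0.0773%. Nedd4L-cKO replicate 1 had 0.0254% in the Filip1l cluster (rank 298), where the others had 0.0274 to 0.0278%. The gaps at Htra3 and Zfp36l2 are under 0.002% of the distal signal and were singled out because the other three libraries lay very close together.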

How the results depend on the processing

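No cluster and no member region had a limma adjusted p under 0.05 under any of the 13 and 12 alternatives, where leaving out each library in turn gave 0 to 0 for both. A replicate block gave 0 clusters and 0 member regions. The shared replicate numbers did not pair the libraries: deviations from the group means correlated at r = -0.24, 0.12 and -0.28 for numbers 1, 2 and 3. Members with an unadjusted limma p under 0.05 numbered 2 (0.667%) with trend and robust options, against 1.71% of all clusters. With log2 tags kept as a covariate there was 1 (0.333%), against 5.30% of all clusters.

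Membership depended on the rule. Of the 300 clusters, 160 overlapped a member with stitching at 5 kb, 185 with scores by fold enrichment, 172 at a -log10 q of at least 5 and 197 with scores by region length. It was 295 with the median over Nedd4L-cKO libraries alone, 297 over WT alone and 289 to 295 when a library was left out. Under all 10 settings that kept all libraries, 48 members and 6 of the first 10 remained. The mean share of distal signal, 12.1%, was 6.62% at 5 kb, 19.8% at 25 kb, 7.07% by fold, 13.5% at a -log10 q of at least 5, 11.8% with lncRNA TSSs left out and 11.9% without the clusters of rank 2, 19 and 148; the last 2 were added after seeing the data. It was 12.0 to 12.1% when a library was left out. Listed genes near members, 40, numbered 25 at a -log10 q of at least 5 and 18 with the TSS inside the cluster, where all genes gave 2.61% and 0.533%. Over 9 alternatives the counts ran from 4 to 8 for immediate early, 3 to 12 for other transcription factor, 1 to 9 for matrix, 0 to 4 for contractile and 1 to 4 for housekeeping genes.

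With 4 against 3 libraries small differences cannot be detected, and pileups that are not scaled to depth limit comparisons to ranks and shares.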
